A study of Rattus norvegicus with 26 samples.

Results

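miR-21 was followed across normal and regenerating rat liver as the array feature named rno-miR-21, without the star that marks the passenger strand. It is 1 of the 677 miRNAs on the array, and it was chosen by name, with earlier results of these data known. The 26 single-colour arrays measured total RNA from livers of male rats in 9 groups. Normal livers came from 3 rats without partial hepatectomy (PH), although their protocol label reads sham. The other groups were remnant right lobes taken 6, 12, 24 or 36 hours after 1/3 PH, in which the left lateral lobe is removed, or after 2/3 PH. There were 3 arrays per group, except 6 hours after 1/3 PH with 2, because the study excluded 1 array for poor quality. Each array is labelled as a separate sample, and the rats behind the operated arrays are not numbered, so the p-values measure the spread between these samples. For some arrays the tissue source label gives an hour 1 or 2 later than the title and the title was used. The study set 1/3 PH, which causes little replication, against 2/3 PH, which drives the remnant liver into marked regeneration.

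miRNAs are short RNAs that guide Argonaute proteins to complementary sites in messenger RNAs, mostly through the seed at their 5′ end, and thereby lower the output of those messengers. miR-21 is among the most widely expressed mammalian miRNAs and is known for high levels in tumours and in injured or inflamed tissue, with Pdcd4 among its established targets. Its gene is transcribed from a promoter of its own near the end of Vmp1, and the transcription factors AP-1 and STAT3, which act early in the regenerating liver, are known to drive it.

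The 2 arms of the miR-21 hairpin are shown because the array measures both, as miR-21 and miR-21*. The sequences are those of RefSeq, 5′ to 3′, with the seed (bases 2 to 8) in capitals in the mature forms.
rno-miR-21-5p (miR-21): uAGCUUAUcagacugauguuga
rno-miR-21-3p (miR-21*): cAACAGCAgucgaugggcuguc
The hairpin follows, with both mature forms in capitals.
Mir21 hairpin: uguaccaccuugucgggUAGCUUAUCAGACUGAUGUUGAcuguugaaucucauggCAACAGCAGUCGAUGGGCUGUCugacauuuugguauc
On assembly GRCr8 the hairpin of 92 bases lies on the minus strand at chr10:71902600-71902691. miR-21-5p is at chr10:71902653-71902674 and begins at hairpin base 18, and miR-21-3p is at chr10:71902615-71902636 and begins at base 56. No annotated gene overlapped the hairpin, and the nearest, Vmp1, was 531 bases away on the same strand. Among the 724 mature rat miRNAs in the table, no other had the seed of miR-21-5p. A DNA site that pairs with this seed and ends in A reads ATAAGCTA.

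miR-21 was the second-brightest miRNA on all 26 arrays, below miR-122, the hepatocyte miRNA, and above miR-22 and the let-7 family. This is an order of signal, which also depends on each probe, and not of molecules. Levels are given here as log2 of the summed probe signal after each array was scaled to its own 75th percentile, taken over probes whose signal cleared the background throughout. As a share of the summed probe signal of the miRNAs detected on an array, miR-21 took between 3.90%, on replicate 2 at 12 hours after 2/3 PH, and 14.6%, on replicate 1 at 36 hours after 2/3 PH. As a group mean its share was 7.91% ± 2.12 in normal liver, 11.9% ± 0.66 at 24 hours after 2/3 PH and 11.8% ± 2.46 at 36 hours after 2/3 PH (SD, n = 3 each). In RNA from whole tissue, fewer cells of a type and less RNA per cell cannot be told apart.

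Each level rests on 2 probes printed as 10 spots each, all well above background and none saturated on any array. The brighter probe read 1218 to 10318 intensity units and the dimmer 270.0 to 1681. The median coefficient of variation between spots was 6.12% and 6.77%. From the spots, the standard error of a probe mean had a median of 0.030 on the log2 scale and reached 0.066, whereas the pooled SD between arrays of a group was 0.23. The spread between arrays was thus several-fold wider than the error left after averaging spots. The scanner software's total gene signal, a different summary from the summed probe signal above, was added over the detected miRNAs as a measure of brightness. It ranged from 38371 to 67278 over the arrays, apart from replicate 2 at 12 hours after 1/3 PH, which had a total of 11768 and 91 detected miRNAs where the others reached up to 155. On that array the gap between the 2 miR-21 probes was 2.17 on the log2 scale, the smallest of all, against a median of 2.63.

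In normal liver the level of miR-21 was 4.30, 4.88 and 4.52 in the 3 replicates. This range was wider than in every other group except 2/3 PH at 12 hours and 2/3 PH at 36 hours.

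After 1/3 PH the level was 4.47 and 4.60 at 6 hours, and 4.13, 4.63 and 4.28 at 12 hours. It was 4.77, 4.55 and 4.63 at 24 hours, and 4.82, 4.64 and 4.74 at 36 hours. All 4 groups overlapped normal liver, and the replicates were most spread at 12 hours.

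After 2/3 PH the level was 4.46, 4.49 and 4.40 at 6 hours, and 4.46, 3.64 and 4.16 at 12 hours. It was 5.21, 5.18 and 5.13 at 24 hours, and 5.55, 4.94 and 5.17 at 36 hours. All 6 arrays of the later times lay above every normal liver, every array after 1/3 PH and every earlier array after 2/3 PH.

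**Figure D1:**
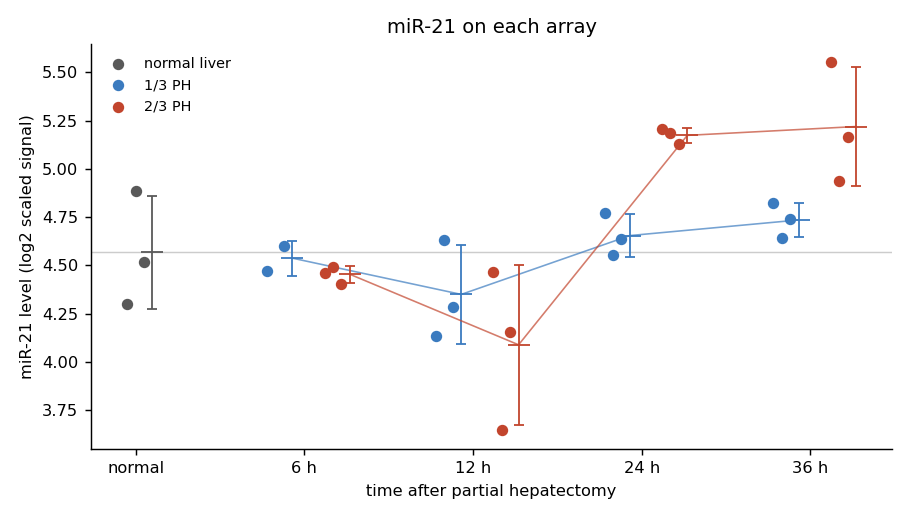
Level of miR-21 (log2 scaled signal) on each array, by time after PH. Points are arrays, horizontal ticks with bars are group means ± SD, lines join the means of 1 operation, and the grey line is the mean of normal liver at 4.57. The later arrays after 2/3 PH lie highest, from 4.94 to 5.55.

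In order of the means, miR-21 was highest at 36 hours after 2/3 PH (5.22 ± 0.31), followed by 24 hours after 2/3 PH (5.17 ± 0.038), 36 hours after 1/3 PH (4.74 ± 0.090) and 24 hours after 1/3 PH (4.65 ± 0.11). Normal liver came next (4.57 ± 0.29), then 6 hours after 1/3 PH (4.54 ± 0.091, n = 2), 6 hours after 2/3 PH (4.45 ± 0.045), 12 hours after 1/3 PH (4.35 ± 0.26) and 12 hours after 2/3 PH (4.09 ± 0.41), each as mean ± SD with n = 3 where not stated. Of the neighbours in this order, 1 pair did not overlap, namely 24 hours after 2/3 PH and 36 hours after 1/3 PH, whose means were 0.44 apart.

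The first comparison asked how far miR-21 in each remnant departed from normal liver. miR-21 rose at both later hours after 2/3 PH in the fit without slide or scan day. At 24 hours it was 1.52-fold the normal level, a log2 difference of 0.61 (95% confidence interval 0.21 to 1.00; limma adjusted p = 0.0326). In that comparison 18.1% of the 144 miRNAs tested passed the threshold of 0.05, 9.72% higher and 8.33% lower. At 36 hours it was 1.57-fold, a log2 difference of 0.65 (interval 0.26 to 1.04; limma adjusted p = 0.0142), where 18.8% of the miRNAs passed, 11.1% of the 144 upward. The median over all tested miRNAs was 0.047 at 24 hours and 0.061 at 36 hours. By size, miR-21 was number 22 of the 144 at 24 hours and number 24 at 36 hours, counted from the largest rise.

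Both calls against normal liver rest on few arrays. The 24-hour call was lost without normal replicate 1 (0.47) or 3 (0.58), or without replicate 1 (0.59), 2 (0.60) or 3 (0.63) of the 24-hour group, and the 36-hour call without normal replicate 1 (0.52) or 3 (0.63) or 36-hour replicate 1 (0.49). Within 1 scan day the difference was 0.87 at 24 hours (3 arrays against 1), and at 36 hours it was 0.73 on 1 day (2 against 1) and 0.28 on another (1 against 1). The 0.87 is against normal replicate 1, the lowest normal liver, and the 0.28 against replicate 2, the highest, so these values depend on 1 normal array each. The 3 arrays of 24 hours after 2/3 PH shared 1 slide with the 3 of 36 hours after 1/3 PH and no normal liver, so slide and group cannot be told apart there. With slide as a random block the 24-hour difference was 0.61 and no longer passed (limma adjusted p = 0.0794), and with slide as a fixed block the 36-hour difference was 0.73 and no longer passed (adjusted p = 0.142).

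At 12 hours after 2/3 PH the mean lay below normal liver, with a log2 difference of -0.48 (interval -0.87 to -0.088; limma unadjusted p = 0.0191, adjusted p = 0.144), while 6.94% of the miRNAs passed. This did not pass the threshold. Without 12-hour replicate 1, the highest of its group, the difference was -0.67 (limma adjusted p = 0.0463), and without replicate 2, the lowest, it was -0.26 (adjusted p = 0.627). At 6 hours after 2/3 PH the difference was -0.11 (limma adjusted p = 0.852), and 0% of the miRNAs passed, against 15 miRNAs at an unadjusted p under 0.05. Within scan days the 12-hour difference was -0.25 (2 arrays against 1) and -0.73 (1 against 1), and the 6-hour difference 0.18 (2 against 1) and -0.48 (1 against 1).

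After 1/3 PH no time point differed from normal liver beyond the threshold. The log2 difference of miR-21 was -0.031 at 6 hours (interval -0.47 to 0.41) and -0.22 at 12 hours (interval -0.61 to 0.17). It was 0.087 at 24 hours (interval -0.31 to 0.48) and 0.17 at 36 hours (interval -0.22 to 0.56), with limma adjusted p from 0.459 to 0.960 over the 4 hours. Changes within those bounds were not resolved. The share of miRNAs that passed was 0% at 6 hours and 0% at 36 hours (8 and 7 miRNAs at an unadjusted limma p under 0.05), 4.17% at 12 hours and 0.694% at 24 hours. Without replicate 2 of the 12-hour group, the array of low signal, the 12-hour difference was -0.36 (adjusted p = 0.364). Within scan days the 24-hour difference was 0.36 on 1 day and -0.25 on another, each against 1 normal liver. On the former day, which held only the lowest normal liver, the difference was 0.24 at 6 hours and 0.43 at 36 hours.

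The 2 probes gave the same picture for 2/3 PH. Against normal liver, the brighter probe was higher by 0.62 at 24 hours and by 0.64 at 36 hours, and the dimmer by 0.55 and 0.71. At 12 hours they read -0.47 and -0.53. At 36 hours after 1/3 PH they were furthest apart, with 0.19 for the brighter and 0.0088 for the dimmer probe.

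**Figure D2:**
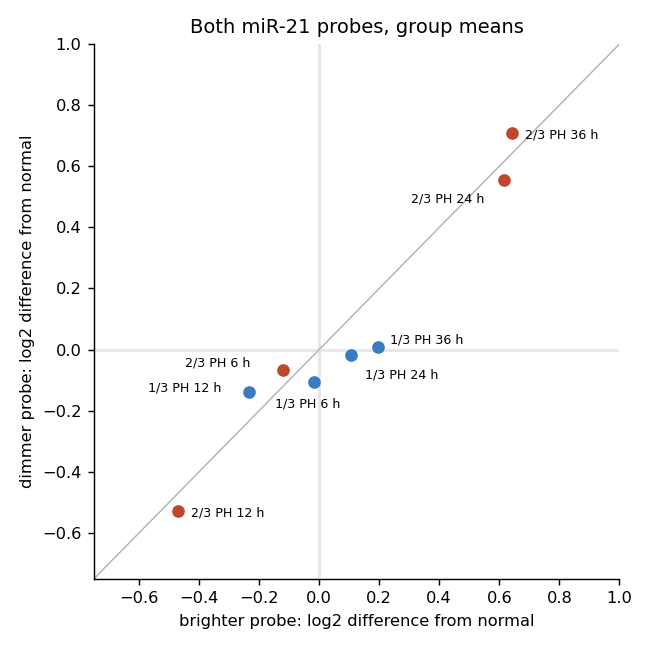
Log2 difference of each group mean from normal liver, by the brighter miR-21 probe (horizontal axis) and the dimmer (vertical axis), after 1/3 PH (blue) and 2/3 PH (red). The line marks equal values, and the 8 groups lie within 0.19 of it on the log2 scale.

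The second comparison set 2/3 PH against 1/3 PH at the same hour. miR-21 was 1.43-fold higher after 2/3 PH at 24 hours (log2 0.52, interval 0.13 to 0.91) and 1.40-fold at 36 hours (log2 0.48, interval 0.093 to 0.88), with no overlap between the operations at either time. Neither passed after adjustment, with limma adjusted p = 0.173 at 24 hours, where 2.78% of the miRNAs passed, and 0.104 at 36 hours, where 15.3% did, 10.4% upward. The unadjusted p was 0.0120 and 0.0180. At 6 hours the difference was -0.084 (interval -0.52 to 0.35; adjusted p = 0.946), and at 12 hours -0.26 (interval -0.65 to 0.13; adjusted p = 0.743), both with overlapping arrays and with 0% of the miRNAs passing (3 and 9 miRNAs at an unadjusted limma p under 0.05). Within scan days it was 0.51 at 24 hours (3 against 2), and at 12 hours -0.15 (2 against 2) and -0.48 (1 against 1). Without the array of low signal the 12-hour difference was -0.12, without replicate 1 or 2 after 2/3 PH it was -0.45 or -0.039, and without 36-hour replicate 1 after 2/3 PH the 36-hour difference was 0.32. No scan day held both operations at 36 hours. No slide held both operations at 24 or at 36 hours, so slide and operation cannot be told apart at those hours.

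Averaged over the 4 times, miR-21 was 0.16 higher on the log2 scale after 2/3 PH than after 1/3 PH (SE 0.097, limma adjusted p = 0.428), and 3.47% of the miRNAs passed. The exact two-sided permutation of arrays within each hour gave p = 0.160. Without the array of low signal the limma difference was 0.20 (adjusted p = 0.233). Against normal liver the average was 0.17 after 2/3 PH (limma adjusted p = 0.541, 11.1% of miRNAs passing) and 0.0014 after 1/3 PH (adjusted p = 0.993, 0% passing, 15 miRNAs at an unadjusted p under 0.05). The latter was -0.034 without the array of low signal. Without normal replicate 1 or 2 the average after 2/3 PH was 0.033 or 0.32. The average over all hours thus held the low 12-hour and the high 24-hour and 36-hour arrays together.

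The third comparison set the later hours (24 and 36) against the earlier (6 and 12) within each operation, which needs no normal liver. After 2/3 PH miR-21 rose 1.90-fold from the earlier to the later hours, a log2 difference of 0.93 (SE 0.13, interval 0.65 to 1.20; limma adjusted p = 2.13e-05). The mean of the earlier hours was 4.27, below the 4.57 of normal liver. The 1.90-fold is therefore larger than the rise over normal liver, 1.52-fold at 24 hours and 1.57-fold at 36 hours. The 6 later arrays, from 4.94 upward, did not overlap the 6 earlier ones, up to 4.49, and the exact two-sided permutation test of arrays gave p = 0.00216, the smallest that its 924 arrangements allow. This comparison moved much of the repertoire: 34.7% of the miRNAs passed, 18.8% higher and 16% lower, around a median of 0.035. Among the 144 tested, miR-21 had the seventh-smallest p and the eighth-largest rise. No slide held both earlier and later arrays after 2/3 PH, so slide and period cannot be told apart in this comparison.

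After 1/3 PH the same difference was 0.25 (SE 0.14, interval -0.042 to 0.55; limma adjusted p = 0.415), with 9.72% of the miRNAs passing. The exact permutation test of the 11 arrays, which pools both hours of a period and weights arrays equally, gave 0.27 and p = 0.0173, a single-miRNA p that is not adjusted over the others. The later arrays, from 4.55 to 4.82, overlapped the earlier, from 4.13 to 4.63. Without the array of low signal, which was the highest of the earlier ones, the difference was 0.32 (limma adjusted p = 0.208).

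The difference between the operations in this late rise was 0.67 on the log2 scale (SE 0.19, interval 0.27 to 1.08; limma adjusted p = 0.0384), and 6.94% of the miRNAs passed. This call was narrow. It was lost without any 1 of 13 arrays, with values from 0.56 to 0.71: for 1/3 PH these were both 6-hour arrays, 12-hour replicate 3, 24-hour replicates 2 and 3, and 36-hour replicates 2 and 3, and for 2/3 PH 6-hour replicates 2 and 3, 12-hour replicate 2, 24-hour replicates 1 and 2, and 36-hour replicate 1. Without the array of low signal it was 0.60 (adjusted p = 0.0481). With slide as a fixed block it was 0.83 (adjusted p = 0.0999), and with scan day as a fixed block 0.66 (adjusted p = 0.0504). Under other processing it ranged from 0.21 with the deposited values to 0.97.

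**Figure D3:**
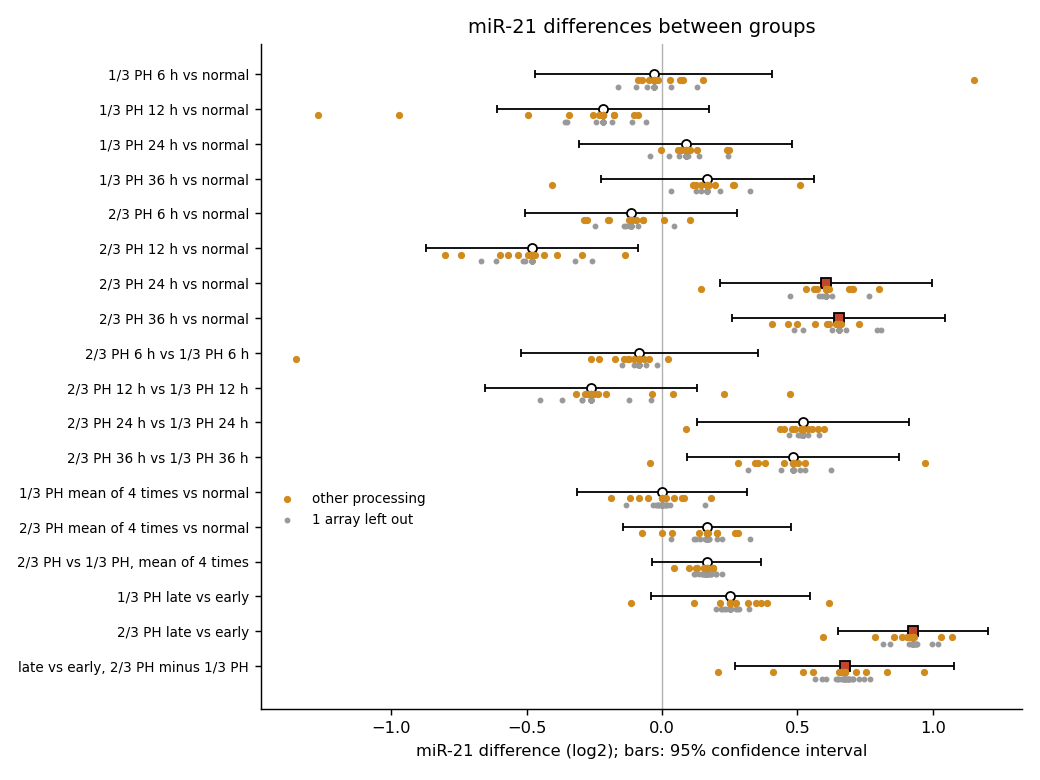
Log2 difference of miR-21 in each of the 18 comparisons, with its 95% confidence interval (red squares mark a limma adjusted p under 0.05 and open circles the others), above the values from other processing choices (orange) and with 1 array left out (grey). Late stands for 24 and 36 hours and early for 6 and 12 hours. The rise from early to late after 2/3 PH, 0.93, ranged from 0.60 to 1.07 over the alternatives.

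miR-21*, the other arm of the same hairpin, was detected on 8 of 26 arrays, on no normal liver and on all arrays of no group. Where detected its signal was 8.75 to 15.8 intensity units, against at least 1488 for miR-21 on any array. It was not tested, since it was not detected throughout any group.

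Lists of miRNAs with known inducers and of miRNAs of proliferating cells were chosen by name, with earlier results of these data known. Their direction is thus not independent evidence. Of the 6 listed miRNAs known to be driven by AP-1, STAT3 or NF-kB, 5 were on the array and 2 could be tested. Neither passed as higher in the later against the earlier hours after 2/3 PH. miR-146a, an NF-kB target that restrains inflammatory signalling, fell by 0.60 on the log2 scale (limma adjusted p = 0.0014), and miR-221, which targets cell cycle inhibitors, read 0.17 (adjusted p = 0.466). miR-181b and miR-222 were not detected on any array.

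The growth-promoting clusters miR-17~92 and miR-106b~25, which are known to favour entry into the cell cycle, had 9 of 9 listed members tested. In the later hours after 2/3 PH 8 of them rose, where 18.8% of the 144 miRNAs did, with a median difference of 0.90 against 0.035 for all miRNAs tested. miR-18a rose by 1.39, miR-19a by 1.15, miR-93 by 1.12, miR-106b by 0.99 and miR-17-5p by 0.90, beside 0.93 for miR-21. The other rises were 0.88 for miR-19b, 0.88 for miR-20a and 0.43 for miR-25. miR-92a, at 0.25, did not pass (limma adjusted p = 0.0700). At 24 hours after 2/3 PH 6 of the 9 were higher than in normal liver, against 9.72% of all miRNAs, with a median of 0.56 against 0.047. At 36 hours 5 were higher, against 11.1% of all, with a median of 0.72 against 0.061. Against 1/3 PH at the same hour, 3 members were higher at 24 hours, against 2.78% of all miRNAs, and 6 at 36 hours, against 10.4%.

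Marker miRNAs of other liver cells were read beside miR-21. The 3 hepatocyte markers, miR-122, miR-192 and miR-194, did not pass in the later hours after 2/3 PH (-0.14, 0.11 and 0.074), and their summed level was 7.18 to 7.65 (log2) on the 26 arrays. At 24 hours after 2/3 PH miR-192 was lower than in normal liver (-0.29, limma adjusted p = 0.0374), and the other two did not pass. Of the 5 leukocyte markers listed 3 were tested, and miR-142-5p was not detected on any array. In the later hours after 2/3 PH miR-150 fell by 0.51, and the others did not pass. At 24 hours after 2/3 PH miR-142-3p (-1.05) and miR-150 (-0.58) were lower than in normal liver, where 8.33% of all miRNAs were lower, and miR-223 (-0.24) did not pass. At 36 hours miR-150 was lower (-0.74, limma adjusted p = 0.00247), where 18.8% of all miRNAs passed in either direction. miR-142-3p (-0.60) and miR-223 (0.097) did not pass at 36 hours. The summed leukocyte level was -0.69 to -0.40 in normal liver, -1.38 to -0.97 at 24 hours and -0.99 to -0.71 at 36 hours after 2/3 PH.

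None of the 4 mesenchymal markers tested, such as miR-199a-3p and miR-214, passed in the later hours after 2/3 PH or at 24 or 36 hours against normal liver, and miR-145 was not detected on any array. At 24 hours all 4 lay above normal liver, from 0.060 for miR-143 to 0.53 for miR-214. Their median was 0.45, against 0.047 for all miRNAs tested, so a rise was not resolved. At 36 hours their median was 0.070, against 0.061. Their summed level was 0.29 to 0.65 in normal liver, 0.39 to 0.98 at 24 hours and 0.30 to 0.42 at 36 hours. The endothelial miR-126 read -0.11 and the red cell miR-451 read 0.040 in the later hours, neither past the threshold.

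The biliary and epithelial markers moved with miR-21 over time after 2/3 PH, but not between the operations at 24 hours. All 3 that were tested, miR-200a, miR-200b and miR-429, rose in the later hours after 2/3 PH, by 0.56, 0.65 and 0.83, where 18.8% of all miRNAs rose, whereas miR-200c and miR-141 were not detected on any array. Their summed level was -2.71 to -1.79 in normal liver, -1.53 to -1.04 at 24 hours and -1.23 to -0.62 at 36 hours after 2/3 PH. At 12 hours after 1/3 PH, where miR-21 was at 4.13 to 4.63, it was also high, at -1.10 to -0.65, in a group that holds the array of low signal. At 24 hours after 1/3 PH it was -1.28 to -1.06. Between the operations at 24 hours, miR-200a, miR-200b and miR-429 read -0.074, -0.061 and 0.13, beside 0.52 for miR-21, and none passed. At 36 hours they read 0.26, 0.90 and 0.71. Only miR-200b passed there (limma adjusted p = 0.0413), where 10.4% of all miRNAs were higher. The part of these cells in the miR-21 values was not tested.

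**Figure D4:**
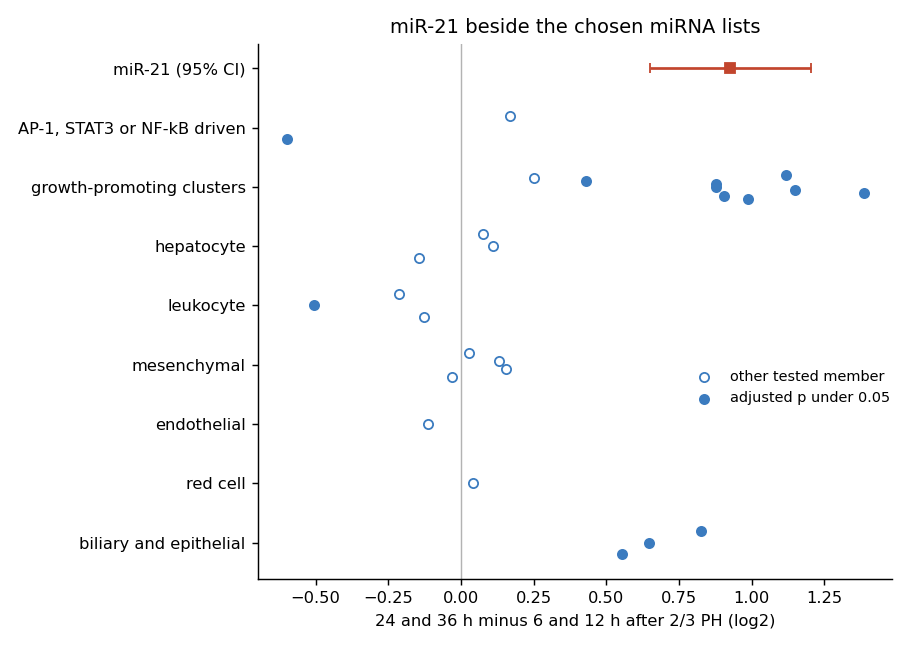
Log2 difference between the later (24 and 36 hours) and earlier (6 and 12 hours) arrays after 2/3 PH for miR-21 (red square with 95% confidence interval) and for each tested member of the chosen lists (blue, filled where the limma adjusted p was under 0.05). The growth-promoting clusters lie at 0.25 to 1.39 and the biliary and epithelial markers at 0.56 to 0.83, while the hepatocyte markers lie from -0.14 to 0.11.

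The 81 other miRNAs detected on every array were ordered by the correlation of their levels with miR-21 over the 26 arrays, as a description, since the arrays share groups and scaling. The most alike were miR-345-5p (r = 0.79), miR-20b-5p (0.75), miR-19b (0.74), miR-29b (0.73) and miR-106b (0.70). All 5 rose in the later hours after 2/3 PH, by 0.52 to 1.07. At the other end were miR-26a (r = -0.79), miR-511* (-0.77) and let-7e (-0.73). In the same hours these read -0.55, -0.78 and -0.42. Choosing by correlation over these same arrays favours both directions, so neither is a separate result. Without the array of low signal the same 5 came first, led by miR-19b (r = 0.83) and miR-345-5p (0.82). Within groups, after the group means were taken off, miR-345-5p and miR-20b-5p still ran with miR-21 (r = 0.51 and 0.49), while miR-19b (0.11) and miR-106b (-0.29) did not. The likeness of the last pair was thus one of group means.

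In the deposited normalized table miR-21 was also the second of the miRNAs on every array, but it took only 6 distinct values, from 11.02 to 12.42 (log2). Because the largest 104 values were the same in every column, the value of miR-21 was set by its rank, that is, by how many of the 22 control features lay above it, which was 4 to 9. At 36 hours the operations did not separate in that table, with 2/3 PH minus 1/3 PH at -0.046, against 0.48 from the spot signals.

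**Figure D5:**
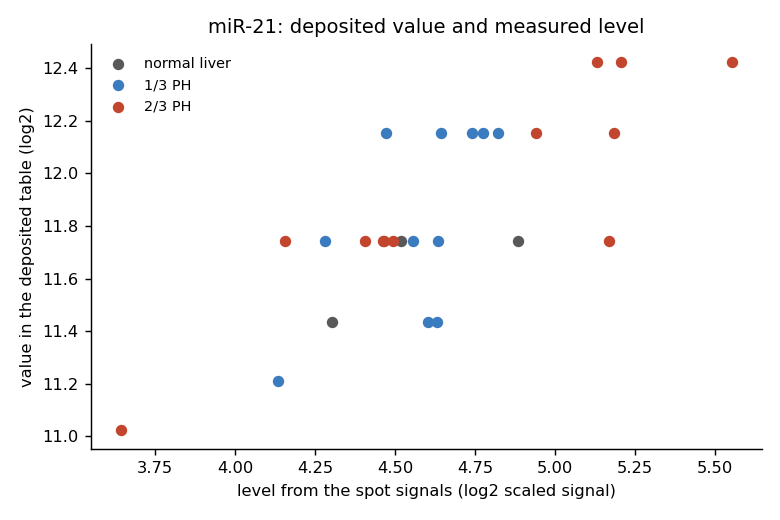
Value of miR-21 in the deposited log2 table against its level from the spot signals (log2 scaled signal), with 1 point per array for normal liver (grey), 1/3 PH (blue) and 2/3 PH (red). The deposited values fall on 6 steps between 11.02 and 12.42, so arrays of different level share 1 value.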

How the data were processed

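Per the file headers, the authors scanned the Agilent Rat miRNA arrays with Agilent Feature Extraction 10.7.3.1, which gave background-subtracted intensity for each spot, not normalized between arrays. They also deposited a log2 table normalized between arrays by a method not given in the sources used here. From the intensities, unflagged spots of a probe were averaged, probes summed per miRNA, and each array scaled to its own 75th percentile, taken over the 109 probes that cleared background throughout. Before log2, sums were raised to at least the dimmest probe signal that cleared background. Tested were the 144 miRNAs that some group had detected on each of its arrays, in 1 limma 3.58.1 fit (R 4.3.3) over 9 groups, with 17 residual degrees of freedom, moderated tests and Benjamini-Hochberg adjustment within each of 18 comparisons, at 0.05. The fit was tested on simulated data. The number of arrays limits the precision. miR-21, its lists and its tests were chosen with earlier results of these data known. Named miRNAs were miR-21, miR-21* and members of the lists past the threshold or among the 3 largest differences of a list. The 5 most and the 3 least correlated with miR-21 were also named. The alternatives were other scaling, background correction, summary, filter and blocks, the deposited values, and each array left out. Scaling to miR-122 and the permutation of late and early arrays were added after seeing the data. Sequences and neighbouring genes came from RefSeq tables on GRCr8, a later build than that of the array design.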

Additional observations from a re-analysis of the deposited data

Results flagged for a closer look

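The rise of miR-21 from the earlier to the later hours differed between the operations, by 0.67 on the log2 scale (2/3 PH minus 1/3 PH; limma adjusted p = 0.0384). It was 0.93 after 2/3 PH and 0.25 after 1/3 PH. The difference was tested as an interaction in the fit over all 144 miRNAs. It lost its call in 10 of 15 alternatives, among them slide as a fixed block (0.83, limma adjusted p = 0.0999) and scan day as a fixed block (0.66, adjusted p = 0.0504), and kept it with slide as a random block (0.72, adjusted p = 0.0292).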

How the results depend on the processing

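The rise from earlier to later hours after 2/3 PH kept its direction and its call in 14 of 15 alternatives and without each of the 26 arrays in turn (0.82 to 1.02). Slide as a fixed block was not among these alternatives, because no slide held both periods after 2/3 PH. With scaling to a 75th percentile that counts every probe, background ones included, it was 0.86 and lost the call, and the values that turned or changed a call were 0.15 (24 hours after 2/3 PH against normal liver), 0.57 (36 hours after 2/3 PH), 1.15 (6 hours after 1/3 PH), -0.41 (36 hours after 1/3 PH), -1.35 (2/3 against 1/3 PH at 6 hours, adjusted p = 0.0437), 0.47 (at 12 hours), -0.12 and -0.072 (4-time means after 1/3 and 2/3 PH), -0.11 (later against earlier after 1/3 PH) and 0.97 (difference between operations). Without such a change, 2/3 minus 1/3 PH moved to 0.088 at 24 hours, 0.97 at 36 hours and 0.045 as the 4-time mean, and 12 hours against normal liver to -1.27 after 1/3 PH and -0.80 after 2/3 PH.

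For 24 hours after 2/3 PH against normal liver the call was also lost with no scaling (0.53), normexp (0.56), the software's total gene signal (0.57), the deposited values (0.69), miRNAs detected on at least 1 array (0.61), slide as a random block (0.61), the groups compared alone (0.61) and miR-122 as reference (0.70). For 36 hours it was lost with no scaling (0.50), normexp (0.41), the deposited values (0.47), slide as a fixed block (0.73), the groups compared alone (0.65) and miR-122 as reference (0.65). The difference between operations in the late rise lost its call with no scaling (0.41), the median scaling (0.56), normexp (0.52), total gene signal (0.67), deposited values (0.21), miRNAs detected on at least 1 array (0.67), slide (0.83) or scan day (0.66) as a fixed block and miR-122 as reference (0.75). The cause was not tested.

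Directions of differences that passed no test turned as follows. At 12 hours 2/3 minus 1/3 PH was 0.23 unscaled and 0.040 in the deposited values, and at 6 hours 0.021 with median scaling. At 36 hours it was -0.046 in the deposited values. The 4-time mean after 1/3 PH was -0.19 unscaled, -0.087 with normexp and -0.050 against miR-122, and after 2/3 PH -0.00082 unscaled. At 6 hours after 1/3 PH the difference from normal liver was 0.074 with total gene signal, 0.15 deposited, 0.030 and 0.078 with slide as a random and a fixed block and 0.068 with scan day. At 6 hours after 2/3 PH it was 0.0072 with total gene signal and 0.10 deposited, and at 24 hours after 1/3 PH -0.0040 with slide fixed. With pooled arrays the later against the earlier hours after 1/3 PH did not turn, at 0.27. That value passed by the exact permutation test (p = 0.0173), which is not adjusted over the other miRNAs.

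With 1 array left out, the ranges were 0.47 to 0.76 and 0.49 to 0.81 (both later hours after 2/3 PH against normal liver), -0.67 to -0.26 (12 hours), -0.25 to 0.044 (6 hours), -0.16 to 0.13 and -0.046 to 0.24 (6 and 24 hours after 1/3 PH), -0.13 to 0.16 (its 4-time mean), 0.033 to 0.32 (that of 2/3 PH), -0.36 to -0.060 and 0.035 to 0.33 (12 and 36 hours after 1/3 PH), -0.15 to -0.019, -0.45 to -0.039 and 0.32 to 0.62 (2/3 minus 1/3 PH at 6, 12 and 36 hours) and 0.56 to 0.77 (difference between operations). Normal replicates 1 and 2 set both ends of the 2/3 PH mean and of 36 hours after 1/3 PH. Of the 5 miRNAs most like miR-21, 2 stayed among the first 5 when group means were taken off. Quantile normalization was left out of the alternatives for miR-21, since its rank is the same on every array and fixes its value. No paired analysis was made, because the study took separate rats for each operation and hour, and no label pairs arrays across groups.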
